A study of Homo sapiens with 15 samples.

Results

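The sodium pump, or Na,K-ATPase, is a membrane enzyme that uses ATP to carry sodium out of the cell and potassium in. Each pump pairs a catalytic alpha chain, which binds the ions and splits ATP, with a beta chain, a glycosylated protein that the alpha chain needs to fold and to reach the plasma membrane. Small proteins of the FXYD family bind the pump and adjust its affinity for ions. In liver cells the sodium gradient it builds drives the uptake of bile acids and amino acids.

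Described here are 4 genes of the pump, of 39133 genes in the deposited table: ATP1A4, the alpha chain known from sperm, and the beta chains ATP1B1, ATP1B2 and ATP1B3. They were taken by symbol. ATP1B2 was picked for its rise with high butyrate, so the contrast of high butyrate against palmitate describes it and tests nothing. In that contrast ATP1B2 had the largest fitted rise, 8.20 on the log2 scale, of any gene with a symbol, over 9105 called genes whose average log2 CPM (reads counted, scaled to a common library size) was at least 2. FBLN2, the next gene, stood at 8.15, and 1 gene with no symbol stood above both at 8.27. Without the limit on level ATP1B2 ranked 87 of 20309 genes tested.

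The measurements came from HepG2, a human liver cancer cell line labelled wild type, with 3 libraries in each of 5 groups. Control cells received neither agent. The palmitate group received palmitate, a saturated fatty acid given here to bring about insulin resistance, for 48 h by the library names. The low, medium and high groups received palmitate for 24 h and sodium butyrate for 24 h at 0.5, 1 and 1.5 mM, so butyrate and time with palmitate cannot be told apart against the palmitate group. No group received butyrate without palmitate, and all cells were harvested at 48 h. Butyrate is a short-chain fatty acid that inhibits histone deacetylases. Palmitate is labelled 200 mM in all 4 treated groups, a unit that could not be checked. The series text calls the replicates biological, but nothing states separate cultures, so p-values measure the spread between these libraries, which may be technical. Totals ran from 35349827 to 61086976 counts per library, and all 12 hepatocyte markers were detected in every group. The palmitate libraries were the least alike. In bulk RNA, fewer cells that express a gene and less RNA per cell cannot be told apart.

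ATP1B2, the member that moved most, is a single gene of chromosome 17 (7646627 to 7657768, plus strand, GRCh38, GENCODE 29). ATP1B1 lies on chromosome 1 (169105697 to 169132722, plus strand), ATP1B3 on chromosome 3 (141876124 to 141926514, plus strand) and ATP1A4 on chromosome 1 (160151570 to 160186977, plus strand). The promoters of the 3 beta genes are shown as description, and whether their letters bear on the transcript levels was not tested. Each runs from 250 bases before to 50 bases after the RefSeq start (GRCh38.p14), at chr17:7646377-7646676 for ATP1B2, chr1:169106440-169106739 for ATP1B1 and chr3:141876393-141876692 for ATP1B3, all on the plus strand. Capitals mark GC boxes (GGGCGG, or CCGCCC on the other strand) and CCAAT boxes (CCAAT, or ATTGG on the other strand).
ATP1B2: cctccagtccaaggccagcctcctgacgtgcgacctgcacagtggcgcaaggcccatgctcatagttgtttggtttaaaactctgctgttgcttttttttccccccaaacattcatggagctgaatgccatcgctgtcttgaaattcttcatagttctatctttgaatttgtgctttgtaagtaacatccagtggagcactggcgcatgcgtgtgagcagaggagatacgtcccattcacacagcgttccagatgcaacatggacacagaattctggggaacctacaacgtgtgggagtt
ATP1B1: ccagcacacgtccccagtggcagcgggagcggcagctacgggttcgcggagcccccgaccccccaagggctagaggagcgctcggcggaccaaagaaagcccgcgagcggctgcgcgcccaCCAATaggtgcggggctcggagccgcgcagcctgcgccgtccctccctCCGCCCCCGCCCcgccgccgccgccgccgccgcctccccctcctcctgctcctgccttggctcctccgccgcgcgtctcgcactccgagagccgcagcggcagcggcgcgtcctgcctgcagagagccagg
ATP1B3: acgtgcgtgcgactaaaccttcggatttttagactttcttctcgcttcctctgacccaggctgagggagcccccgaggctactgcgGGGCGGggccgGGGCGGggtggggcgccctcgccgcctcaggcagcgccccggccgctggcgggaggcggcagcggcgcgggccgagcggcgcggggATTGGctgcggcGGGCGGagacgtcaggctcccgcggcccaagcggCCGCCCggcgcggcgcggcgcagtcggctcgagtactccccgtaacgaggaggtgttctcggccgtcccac

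All 4 members were found among 35116 RefSeq promoters. The ATP1B2 window held 9 CpG dinucleotides and 49% G and C, against medians of 14 and 58.7% over all promoters, and had neither a GC box nor a CCAAT box. ATP1B1 held 41 CpG, more than 93.3% of promoters, with 77% G and C, 2 GC boxes and 1 CCAAT box. ATP1B3 held 45 CpG, more than 96.5% of promoters, with 75% G and C, 4 GC boxes and 1 CCAAT box. ATP1A4 held 4 CpG, 53% G and C, no GC box and 1 CCAAT box. The TATA letters (TATAAA, or TTTATA on the other strand) were in none of the 4 windows. Of all promoters of this length 45.0% held a GC box, 34.6% a CCAAT box and 11.5% the TATA letters. A match or its absence describes the letters of the window only. GENCODE gives ATP1B2 further starts downstream, at 7651112 (4485 bases on) and at 7654109, which this window does not cover. Gene counts do not tell the starts apart, so which promoter was in use is not known.

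Of the beta chains, ATP1B1 was the most abundant. It is widely expressed and also takes part in cell adhesion in epithelia. Levels here are CPM on library totals scaled by the TMM method, as mean ± SD of 3 libraries. In control libraries ATP1B1 stood at 181, 175 and 172 CPM (176 ± 4.92), and in palmitate libraries at 200.0, 157 and 161 CPM (173 ± 23.8). In low butyrate it stood at 151, 150.4 and 159.9 CPM (154 ± 5.34), in medium at 157, 145 and 157 CPM (153 ± 7.09) and at the high dose 176, 175 and 168 CPM (173 ± 4.54). Every low and medium library was below every control library, the high libraries overlapped the control libraries, and 1 palmitate library was above all others. Separation of this kind was not set beside its share over all genes. Here, and below for ATP1B3 and ATP1B2, it does not by itself set a gene apart.

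Against control, ATP1B1 fell by 0.20 on the log2 scale with low butyrate (SE 0.0755, 1.14-fold lower, adjusted p = 0.0408) and by 0.20 with medium butyrate (SE 0.0755, 1.15-fold lower, adjusted p = 0.0334). These are edgeR quasi-likelihood tests adjusted by Benjamini-Hochberg over 20309 genes, with 0.05 as the threshold for a call. Of all genes tested 44.4% were called in low against control and 46.9% in medium against control, so a call by itself does not set ATP1B1 apart. Both calls were lost in some of the fits without 1 library. In low against control the adjusted p was 0.117, 0.0787 and 0.0575 without control 1, 2 and 3, and 0.102 and 0.131 without low 1 and 2. In medium against control it was 0.101 and 0.0669 without control 1 and 2, and 0.134 without medium 2.

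ATP1B1 was not called in palmitate against control (log2 change -0.03, 95% interval -0.19 to 0.13, adjusted p = 0.909), where 0.108% of genes were. That share rests on 22 genes, which became 219 without palmitate 1, 1175 without palmitate 2 and 335 with DESeq2. It was not called in high against control either (-0.02, interval -0.18 to 0.13, adjusted p = 0.783), a difference whose sign turned with the scaling. From medium to high it was 0.18 higher without passing the threshold (interval 0.02 to 0.33, adjusted p = 0.0526), although every high library exceeded every medium library. That difference did pass under other scalings and tools, for example with DESeq2 (adjusted p = 0.0120), and without palmitate 1 (0.00856) or palmitate 2 (0.0389).

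**Figure D1:**
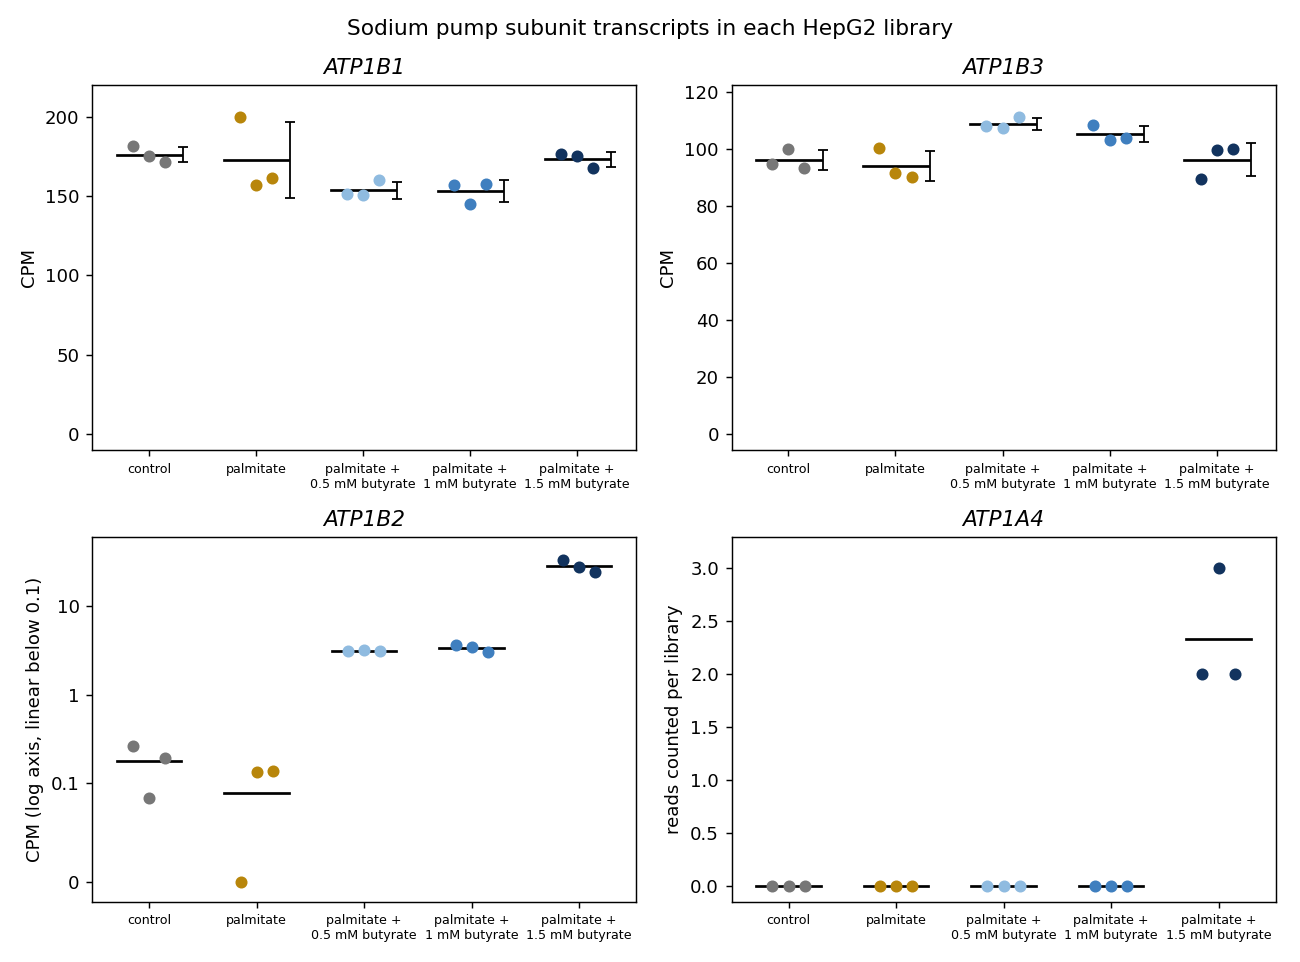
Levels of the 4 sodium pump genes in each of 15 HepG2 libraries, by group: CPM on a linear axis for ATP1B1 and ATP1B3, CPM on an axis that is logarithmic above 0.1 and linear below for ATP1B2, and read counts for ATP1A4. Points are libraries, lines are means and bars are SD (n = 3). ATP1B1 dips and ATP1B3 is raised in low and medium butyrate, while ATP1B2 climbs from 0.181 CPM in control to 27.9 CPM in high butyrate.

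ATP1B3, the other beta chain present in every group at high level, is broadly expressed and is also a leukocyte surface antigen. Control libraries held 94.7, 99.9 and 93.4 CPM (96.0 ± 3.46), palmitate libraries 100.1, 91.6 and 90.2 CPM (94.0 ± 5.33), and low butyrate libraries 108, 107 and 111 CPM (109 ± 2.19). Medium butyrate libraries held 108, 103 and 104 CPM (105 ± 2.86) and high butyrate libraries 89.5, 99.4 and 99.7 CPM (96.2 ± 5.81). Every low and medium library was above every control and palmitate library, and the high libraries overlapped those of control and palmitate.

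In low butyrate ATP1B3 rose over control by 0.18 on the log2 scale (SE 0.0617, 1.13-fold, adjusted p = 0.0219) and over palmitate by 0.21 (SE 0.0617, 1.16-fold, adjusted p = 0.00733). In medium butyrate it rose over palmitate by 0.16 (1.12-fold, adjusted p = 0.0346). Over control the medium value was 0.13 higher and not called (interval 0.00 to 0.26, adjusted p = 0.0913). Of all genes, 49.9% were called in low against palmitate and 51.5% in medium against palmitate. The low against palmitate call held without any 1 library. Low against control was lost without control 1 or 3 or low 3 (adjusted p of 0.0789, 0.0952 and 0.0840), and medium against palmitate without palmitate 2 or 3 or any of medium 1, 2 and 3 (0.0831, 0.138, 0.120, 0.0521 and 0.0514).

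At high butyrate ATP1B3 was not called against control (log2 change 0.00, interval -0.12 to 0.13, adjusted p = 0.962, with 70.0% of all genes called) or against medium (-0.13, interval -0.25 to 0.00, adjusted p = 0.0882, with 55.6% of all genes called). The difference from medium did pass without palmitate 1 (-0.13, adjusted p = 0.0374). Neither was it called in palmitate against control (-0.03, interval -0.16 to 0.10, adjusted p = 0.869). ATP1B1 was also not called against palmitate, by -0.17 with low butyrate (adjusted p = 0.0728) and -0.17 with medium (adjusted p = 0.0613). Both of those passed without palmitate 2 (0.0141 and 0.0115), palmitate 3 (0.0443 and 0.0374) or high 1 (0.0495 and 0.0390).

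ATP1B2 encodes the beta chain known from glial cells of the brain, where it is also an adhesion molecule. Control libraries had 12, 4 and 10 raw counts and palmitate libraries 0, 6 and 8. Low butyrate libraries had 136, 114 and 184, medium libraries 142, 175 and 131, and high libraries 1462, 1373 and 1185. In CPM these were 0.262, 0.0853 and 0.195 in control (0.181 ± 0.0890) and 0, 0.133 and 0.137 in palmitate (0.0901 ± 0.0780). Low butyrate gave 3.12, 3.19 and 3.06 CPM (3.12 ± 0.0662), medium 3.63, 3.44 and 3.05 CPM (3.37 ± 0.297) and high 32.5, 27.4 and 23.9 CPM (27.9 ± 4.36). The libraries fell into 3 levels that did not overlap: control with palmitate, low with medium, and high.

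ATP1B2 stood at 17.1-fold its control level in low butyrate (log2 change 4.09, SE 0.287, adjusted p = 2.54e-10) and at 18.4-fold in medium (4.20, SE 0.285, adjusted p = 1.26e-10). It was not picked on these libraries. Between low and medium the difference was 0.11 on the log2 scale (95% interval -0.27 to 0.50, adjusted p = 1), which leaves room for a ratio from 0.827 to 1.41. No gene was called between those doses (0.00%) by edgeR. An unadjusted p under 0.05 was found for 490 of 20309 genes, a smaller share than 0.05, so that count is no sign of dose differences. ATP1B2 reached the level the filter asks for in all 3 libraries of each butyrate group but in only 1 control and no palmitate library. It thus passed through the groups where it is high. As for KCNK6 and ATP2B3 below, its calls are therefore not read as tested rises, and its levels are given as description. Both differences from control were called under all 25 alternatives, among them no filter, but these reuse the same libraries. The smaller log2 changes there, down to 0.85 and 0.91, came on log2(FPKM + 1), a scale that understates low genes.

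Given as description, since the gene was picked on these libraries, ATP1B2 in high butyrate was 8.28-fold its medium level (log2 change 3.05) and 153-fold its control level (7.25). Against palmitate the log2 change was 5.04 for low, 5.15 for medium and 8.20 for high butyrate, where 71.6% of all genes were called, and palmitate against control was -0.95. In that same high against palmitate contrast ATP1B1 differed by 0.00 and ATP1B3 by 0.03. Folds against control and palmitate rest on few reads, 12 at most per library. Read pairs seem to have been counted as 2 reads, because 69.2% of counts from 1 to 20 in the table were even against 50.5% of counts from 100 to 1000. The ATP1B2 count was even in all 5 control and palmitate libraries that had any, so its reads there may stand for fewer fragments.

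**Figure D2:**
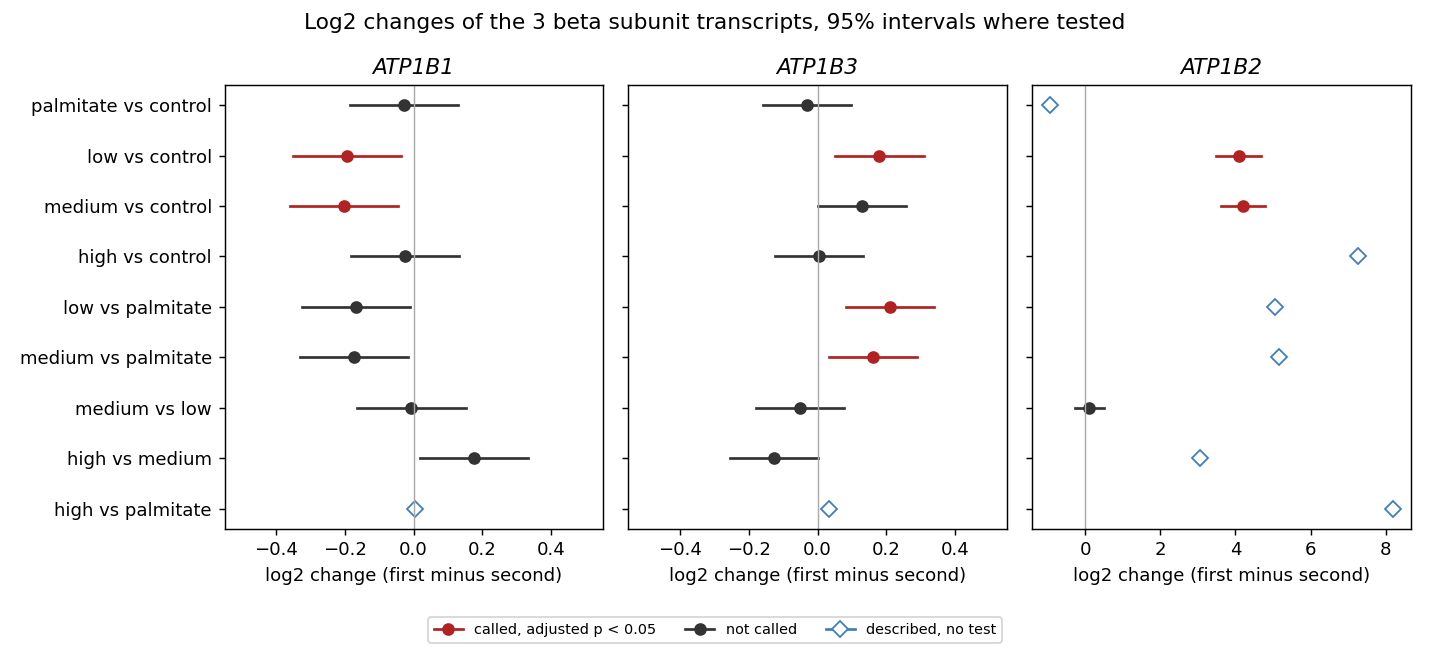
Log2 changes (first group minus second, x axis) of ATP1B1, ATP1B3 and ATP1B2 in 9 comparisons, each gene on its own scale. Filled points are tested values with their 95% intervals, red where called, and open diamonds are values given with no test. ATP1B1 lies left of 0 and ATP1B3 right of 0 in low and medium butyrate, by at most 0.21, while ATP1B2 reaches 8.20.

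ATP1A4, which in sperm serves motility, was at the limit of detection. It had 0 counts in all 12 libraries of control, palmitate, low and medium, and 2, 3 and 2 counts in high butyrate. A count of 0 allows up to 3 counts, or 0.0499 to 0.0840 CPM depending on the library, for counting error only, and up to 6 counts, or 0.0998 to 0.168 CPM, if each pair was counted as 2 reads. No high library had more than 3 counts, so no fold or test is given. Of the 9 sperm and testis markers in the table, 7 were detected in control (1.72 to 2.35 CPM summed), with AKAP4 and SPATA16 at 0, and 8 in high butyrate (2.20 to 2.87 CPM), with TNP1 at 0 there.

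Markers of other cell types were read beside ATP1B2, and their part in its values was not tested. The 8 astrocyte markers summed to 187 to 203 CPM in control, 179 to 191 CPM in low, 185 to 195 CPM in medium and 223 to 246 CPM in high butyrate. Most of that sum was GLUL, glutamine synthetase, which liver cells also express, at 179.7 ± 6.99 CPM in control and 204 ± 11.9 CPM in high butyrate. The sum therefore says little about the other markers. In low and in medium against control, 2 of the 8 were called higher and 2 lower. In high against control 4 of the 8 were called higher and 2 lower. Of all genes tested, 44.4%, 46.9% and 70.0% were called in low, medium and high against control. Counts of this kind therefore do not set a marker list apart. The markers named here were chosen after their values were seen. GFAP went from 0.153 ± 0.0233 CPM in control to 3.08 ± 0.243 in low, 3.47 ± 0.138 in medium and 4.77 ± 0.189 CPM in high butyrate. S100B, at 0 in control and palmitate, had 0.442 ± 0.0778 CPM in high butyrate, and passed the filter only through that group. AQP4 went from 1.22 ± 0.151 CPM in control to 0.269 ± 0.115 in low, 0.321 ± 0.222 in medium and 0.160 ± 0.0404 CPM in high butyrate. GJA1 went from 0.260 ± 0.103 CPM in control to 0.0519 ± 0.0900 CPM in high butyrate. The 8 neuron markers summed to 5.08 to 5.80 CPM in control, 12.9 to 13.1 CPM in low, 14.9 to 16.7 CPM in medium and 48.9 to 50.9 CPM in high butyrate, with RBFOX3, NEFL and STMN2 at 0 in control. Of the 4 tested, 1 was called higher in low and in medium against control, and 2 higher and 1 lower in high. At the lower doses that was SYP, at 2.25 ± 0.166 CPM in control, 10.2 ± 0.601 in low and 12.5 ± 0.743 in medium. The neuron sum therefore says little about the other neuron markers there. Muscle markers stood at 0.701 to 1.07 CPM in control, 6.42 to 6.98 CPM in low, 7.18 to 7.47 CPM in medium and 28.2 to 28.7 CPM in high butyrate, with MYL2 at 0 in control, low and high. Kidney tubule markers stood at 1.64 to 2.03, 18.2 to 20.1, 18.7 to 21.9 and 46.5 to 49.6 CPM in those groups, with AQP2 at 0 in all but the last. Fibroblast, endothelial and immune markers stood at 8.15 to 9.75, 15.6 to 19.0, 15.9 to 19.6 and 32.9 to 38.2 CPM, with DCN at 0 in low and high. Hepatocyte markers summed to 28732 to 30862 CPM in control and 26661 to 30441 CPM in high butyrate.

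To compare the beta genes with each other, levels were taken per length, as the FPKM (fragments per kilobase, scaled to the library total) the authors deposited. ATP1B1 had 61.4 ± 1.14 FPKM in control and 63.4 ± 1.13 in high butyrate, ATP1B3 36.6 ± 1.48 and 38.6 ± 3.19, and ATP1B2 0.0519 ± 0.0252 and 8.45 ± 1.12 (SD, n = 3). The order ATP1B1, ATP1B3, ATP1B2 held in every group, and the SDs of neighbours did not meet. FPKM carry no TMM scaling. On that scale, as with library totals alone, ATP1B1 was higher in high butyrate than in control, and in CPM it was not.

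Of the summed beta FPKM in a library, ATP1B1 made up 62.6% ± 1.02 in control and 62.5% ± 1.89 in palmitate. With butyrate its share was 55.8% ± 0.378 at the low, 56.5% ± 0.973 at the medium and 57.4% ± 1.03 at the high dose. ATP1B3 made up 37.4% ± 1.05, 37.5% ± 1.86, 43.2% ± 0.337, 42.5% ± 0.883 and 34.9% ± 2.19 over control, palmitate and the rising doses. ATP1B2 went from 0.0531% in control and 0.0288% in palmitate to 0.939% ± 0.0442 at the low, 1.03% ± 0.0947 at the medium and 7.66% ± 1.16 at the high dose, whose libraries stood at 8.93%, 7.39% and 6.66%. ATP1B1 thus had a smaller share in all 3 butyrate groups, and the remainder went mainly to ATP1B3 at the lower doses and to ATP1B2 at the high dose. For each gene in low and in medium against control the groups were separate, and the exact permutation test (two-sided, 3 libraries against 3) gave p = 0.1 in all 6 tests, the smallest it allows (adjusted p = 0.1), so this design cannot pass 0.05.

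**Figure D3:**
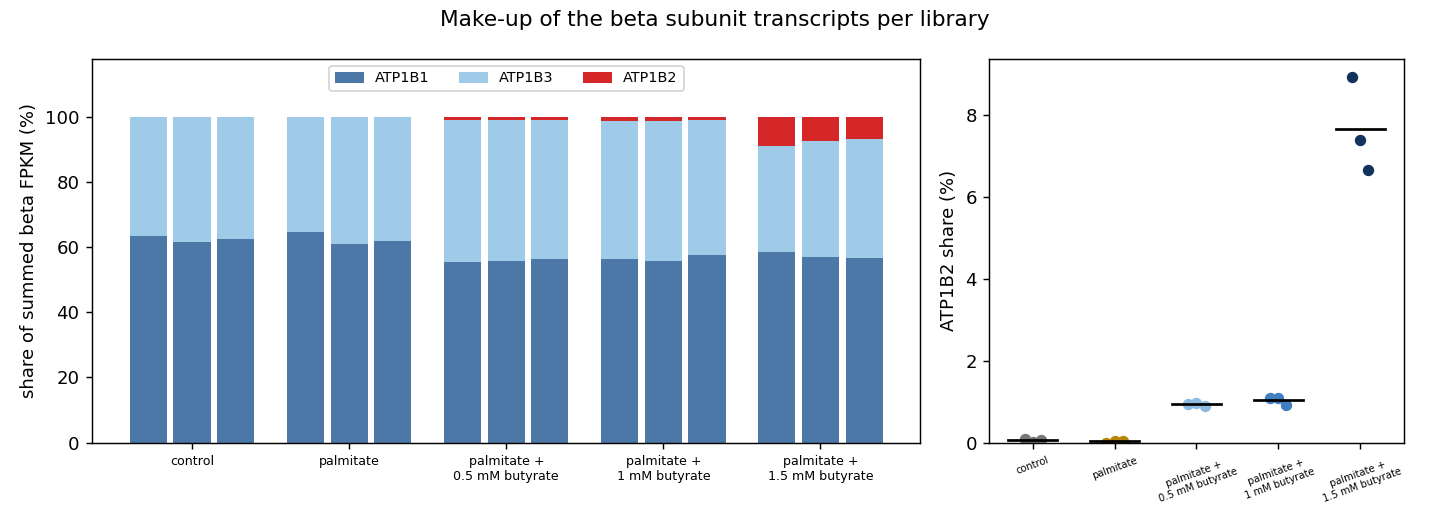
Share of each beta gene in the summed beta FPKM of a library (left, percent, 1 bar per library) and the ATP1B2 share on its own axis (right, percent; points are libraries, lines are means of 3). ATP1B3 is widest in low and medium butyrate, and ATP1B2 is visible mainly in high butyrate, at 6.66% to 8.93%.

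Of the related pumps, ATP4A, the alpha chain of the gastric proton pump, stood at 0.523 ± 0.253 CPM in control and 3.02 ± 0.760 CPM in medium (5.82-fold higher, adjusted p = 2.30e-07), and at 5.29 ± 0.427 CPM in high butyrate. ATP1B4, ATP4B and ATP12A had too few reads to be tested, with at most 35 counts summed over a group.

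Of 7 FXYD names, 6 were in the table and 3 were tested, of which FXYD5 and FXYD4 were called higher in medium against control. FXYD5, a regulator also tied to cell adhesion, stood at 1.15 ± 0.308 CPM in control and 2.74 ± 0.607 in medium (2.38-fold, adjusted p = 0.0371), and was back at 1.15 ± 0.0572 CPM in high butyrate. FXYD4 had 1 count summed over control, 16 over medium and 254 over high butyrate. It passed the filter only through the high group, so its call in medium against control (adjusted p = 0.0198) is not read as a rise. FXYD2, the regulator known from kidney, was at 12.7 ± 0.997 CPM in control, 10.5 ± 1.79 in medium, not called, and 2.99 ± 0.449 in high butyrate. The calls of FXYD4 and FXYD5 were each lost in some of the fits without 1 library, which left 0 to 2 FXYD genes called higher. FXYD5 also lost its call with DESeq2 (adjusted p = 0.275), so its rise is not firm.

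The other lists cover the ion traffic the pump works against. In medium against control, 25.2% of all genes tested were called higher and 21.7% lower, with a median log2 change of 0.03 over all genes. These shares and the list counts include genes that passed the filter only through butyrate groups. Such genes had little room to be called lower. Of 11 tested calcium and copper pumps of the same P-type family, 4 were called higher and 3 lower (median 0.30). ATP2A1, a calcium pump of the sarcoplasmic reticulum, went from 12.5 ± 0.862 to 21.6 ± 0.477 CPM (adjusted p = 8.01e-06), ATP2A3, its relative in blood and epithelial cells, from 8.74 ± 0.820 to 14.8 ± 0.440 CPM (8.47e-06) and ATP2B4, a plasma membrane calcium pump, from 1.11 ± 0.152 to 2.53 ± 0.205 CPM (0.000372). ATP2B3, also of the plasma membrane, was called on few reads, from 0.0363 ± 0.0629 to 0.723 ± 0.0989 CPM (2.76e-05).

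Of 14 tested genes of sodium entry, 5 rose and 2 fell (median 0.27). SLC8A2, a sodium-calcium exchanger, rose 6.43-fold to 4.60 ± 0.630 CPM (adjusted p = 2.54e-11), SLC9A5, a sodium-proton exchanger, 2.00-fold to 5.66 ± 0.688 CPM (1.63e-06) and SLC8B1, the mitochondrial sodium-calcium exchanger, 1.28-fold to 24.3 ± 0.982 CPM (0.000285). SLC4A7, a sodium bicarbonate cotransporter, fell 1.99-fold from 50.6 ± 1.82 to 25.3 ± 2.36 CPM (4.08e-09). Of 18 tested cation chloride cotransporters and their kinases, 4 rose and 3 fell (median -0.04). The kinase WNK3 rose 3.68-fold (8.15e-07) and SLC12A9 1.35-fold (0.000102), while the kinase OXSR1 fell 1.32-fold (6.27e-05) and SLC12A2, the sodium potassium chloride cotransporter, 1.46-fold (0.000131).

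Among 23 tested carriers that use the sodium gradient to take up solutes, 10 rose and 10 fell (median 0.13). SLC5A5, the iodide carrier, was at 0.384 ± 0.0829 CPM in control and rose 10.1-fold to 3.89 ± 0.210 CPM (adjusted p = 2.26e-12), and SLC6A12, a carrier of betaine, 4.67-fold to 4.14 ± 0.424 CPM (5.67e-08). SLC5A9, a sugar carrier, fell 2.36-fold to 6.48 ± 0.477 CPM (2.13e-08) and SLC38A1, a glutamine carrier, 1.48-fold from 207 ± 4.74 to 140.2 ± 3.78 CPM (3.85e-08). Of 11 tested potassium channels 7 were called higher and none lower (median 0.56). Among the 11, KCNK6 and KCNN3 reached the level the filter asks for in no control library and had little room to fall. KCNH2, a voltage-gated channel, rose 16.9-fold to 8.95 ± 0.739 CPM (2.03e-11), KCNN4, a calcium-activated channel, 4.24-fold to 2.12 ± 0.504 CPM (3.08e-05) and KCNJ11, the pore of the ATP-sensitive channel, 1.48-fold to 5.52 ± 0.448 CPM (0.00251). KCNK6, a background potassium channel, was called from 0.0288 ± 0.0249 to 1.27 ± 0.450 CPM (7.90e-07). Like ATP2B3, it passed the filter only through the butyrate groups, so the calls of KCNK6 and ATP2B3 are not read as rises. No tested gene of these 6 lists was called in palmitate against control. Only 0.108% of all genes tested were called there, so this does not set the lists apart.

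**Figure D4:**
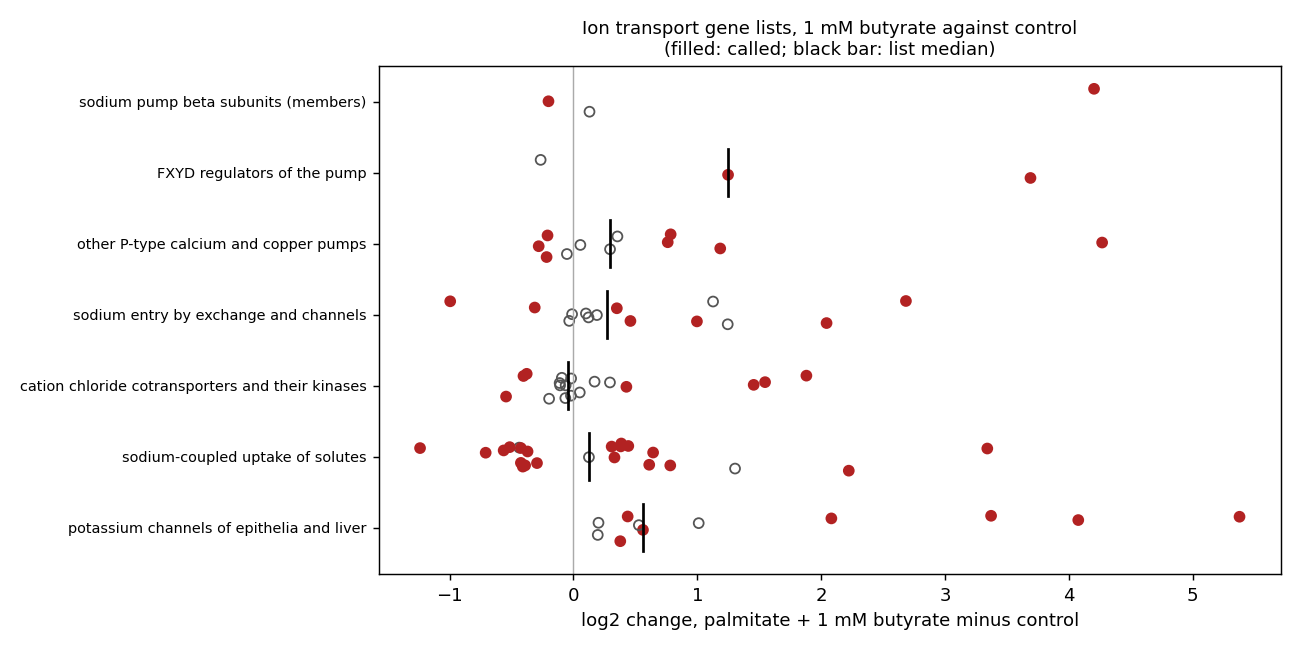
Log2 change in medium butyrate against control (x axis) of each tested gene of 6 ion transport lists and the beta genes; filled points were called, black bars are list medians. ATP1B2 lies at 4.20, far from ATP1B1 at -0.20 and ATP1B3 at 0.13. No potassium channel was called lower, though KCNK6 and KCNN3 had little room to fall.

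Each beta gene was set beside the genes whose log2 CPM followed it most closely over 15 libraries, among the 10872 genes averaging at least 2 log2 CPM, as a description. The libraries share the 5 groups, so the points are not independent. ATP1B2 was most like TPPP (Pearson r = 0.995), CORO6 (0.995), CLIP2 (0.994), SH3PXD2B (0.993) and JUP (0.993), and 1066 genes reached 0.9. Their high butyrate levels were 12.0, 12.8, 3.11, 2.41 and 2.74 times control, against 153-fold for ATP1B2, so they shared its course and not its size. ATP1B1 was most like MFN1 (0.924), COQ10B (0.921), TCAIM (0.916), PRPSAP2 (0.908) and SYF2 (0.901), with 5 genes at 0.9 or above. ATP1B3 was most like IMPACT (0.928), RPL29 (0.885), IGFBP6 (0.883), DGUOK (0.879) and ZNF227 (0.877), with 1 gene at 0.9 or above.

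**Figure D5:**
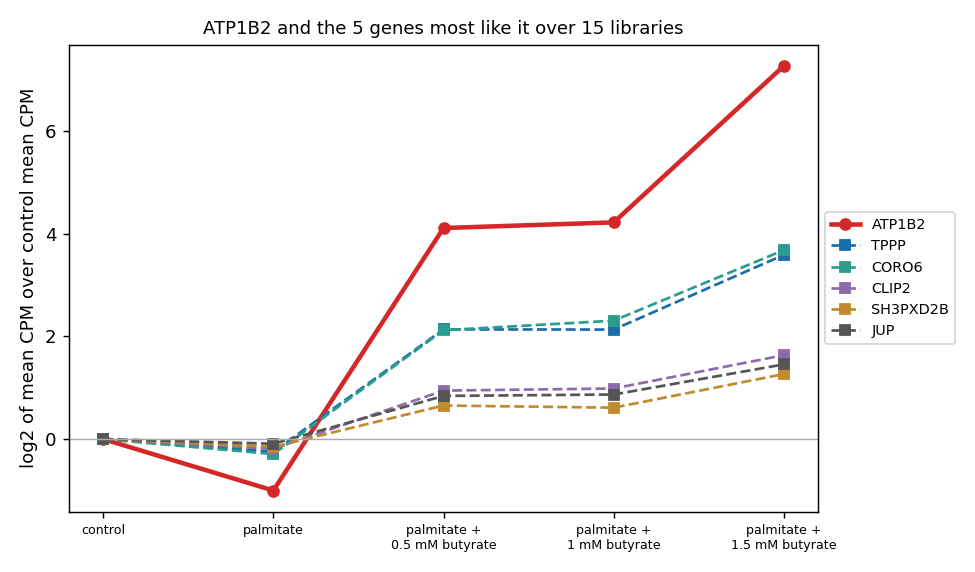
Group mean CPM over the control mean, on a log2 scale (y axis), for ATP1B2 and the 5 genes with the highest correlation to it over 15 libraries. All rise in low and medium butyrate, stay level between them and rise again in high butyrate, ATP1B2 by far the most.

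SHBG, which encodes a plasma carrier of sex steroids, lies 13244 bases before ATP1B2 on the same strand. It rose from 1.83 CPM in control to 6.02, 6.77 and 6.19 CPM with low, medium and high butyrate (3.28-fold, adjusted p = 4.13e-08, 3.70-fold, 8.20e-09, and 3.38-fold, 5.40e-09). The level of SHBG in high butyrate was close to that at the lower doses, while that of ATP1B2 was 8.28-fold its medium level. ATP1B1 overlaps NME7 on the opposite strand by 192 bases, and NME7 stood at 17.4 CPM in control and 15.2, 16.6 and 21.9 CPM in the butyrate groups. ATP1B3 overlaps the antisense gene ATP1B3-AS1 over 770 bases. Whether the counting used strand is not stated, so reads in these overlaps cannot be told apart.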

How the data were processed

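The deposited table held raw counts per Ensembl gene for 15 HepG2 libraries and, beside them, FPKM made by the authors. FastQC, HISAT2, featureCounts, DESeq2 and the builds GRCh38 and hg38 are named per the submitters' processing notes, with no version. Annotation release and strand setting are not given in the sources used here.

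The 4 members and all gene lists were chosen with earlier results of these data known. Genes kept by filterByExpr of edgeR (20309 of 39133) were scaled by TMM and fitted in 1 quasi-likelihood model over 15 libraries (edgeR 4.0.16, limma 3.58.1, R 4.3.3). Adjusted p is Benjamini-Hochberg over all genes tested, with calls under 0.05. Intervals are 95% and derive from that test. Of the 4 members, ATP1A4 did not pass the filter. ATP1B2 was tested only in the 3 comparisons free of the palmitate and high libraries, and no member was tested in high against palmitate.

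Named were all members, up to 4 called genes per list with the smallest adjusted p in medium against control, the 5 genes most like each beta gene, and overlapping or nearest genes. Some of the genes so named are left out. The lists hold 119 names, of which 115 were in the table and 83 were tested. Positions came from GENCODE 29 and promoters from RefSeq.

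Alternatives were DESeq2 (1.42.0), its size factors, library totals alone, no filter, a minimum of 1 CPM in 3 libraries, fits of only the groups compared, a replicate block, limma-trend on log2(FPKM + 1) or log2(FPKM + 0.1), an adjusted p under 0.01, shares from CPM, and leaving out each library. No replicates agreed within sampling noise, with a chi-square per gene of 5.58 to 62.4. The fit was run on simulated counts in which few genes changed, as many up as down, in the medium group only. Far more genes were called in these data, so that run does not test the scaling. Depth ran from 35349827 to 61086976 counts per library, which limits genes near 0. Figures used matplotlib 3.10.9 (Python 3.11.15).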

Additional observations from a re-analysis of the deposited data

How the results depend on the processing

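Of the member results, the differences of ATP1B2 from control in low and medium butyrate were called under all 25 alternatives. They are not read as tested rises, since the gene passed the filter through the butyrate groups. Small changes near the threshold moved. With an adjusted p under 0.01 the calls of ATP1B1 in low (-0.20) and medium (-0.20) against control and of ATP1B3 in low against control (0.18) and medium against palmitate (0.16) were lost, as were the FXYD calls (0 higher), and palmitate against control had 6 called genes. ATP1B1 in low against control also lost its call with DESeq2 size factors (-0.18) and with at least 1 CPM (-0.17), and ATP1B3 lost low against control (0.18) and medium against palmitate (0.15) with no filter and medium against palmitate with only the groups compared (0.16). ATP1B3 in medium against control gained a call with at least 1 CPM (0.16), only the groups compared (0.14) and DESeq2 (0.14). ATP1B1 in high against medium gained one with DESeq2 size factors (0.21), library totals (0.25), at least 1 CPM (0.22), only the groups compared (0.17), log2(FPKM + 1) (0.25), log2(FPKM + 0.1) (0.25) and DESeq2 (0.21). The cause was not tested.

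In high against control, ATP1B1 turned positive with DESeq2 size factors (0.022), library totals (0.048), at least 1 CPM (0.047), both FPKM scales (0.047 and 0.047) and DESeq2 (0.022), and ATP1B3 turned negative with no filter (-0.037) and only the groups compared (-0.011). None of these was called. On log2(FPKM + 1), which compresses low values by construction, the untested ATP1B2 changes were 3.16 in high against control, 0.89 in low, 0.94 in medium and 3.20 in high against palmitate, and 2.26 in high against medium. On log2(FPKM + 0.1) they were 5.82, 3.01, 3.11 and 6.10 for the first 4. ATP1B3 in high against palmitate moved to 0.17 with library totals and to 0.16 and 0.17 on the FPKM scales. Shares from CPM without length were 64.7%, 64.6%, 57.9% and 58.5% for ATP1B1 in control, palmitate, low and medium, 1.18%, 1.29% and 9.39% for ATP1B2 in low, medium and high, and 35.3%, 35.4%, 40.9%, 40.2% and 32.4% for ATP1B3 in the 5 groups.

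Over all genes, palmitate against control had 40 called genes with library totals, 600 with no filter, 3 with only the groups compared, 9 and 7 on the FPKM scales and 335 with DESeq2, against 22, and 4 to 1175 without 1 library (219 without palmitate 1 and 1175 without palmitate 2). Medium against low had 39 with no filter and 1, 1 and 1 with only the groups compared and on the FPKM scales. FXYD genes called higher numbered 1 with only the groups compared and 1 with DESeq2, where FXYD5 lost its call. Replicate numbers were not taken to pair the libraries, since correlations of same-numbered libraries were not all above 0.1 in any comparison. Libraries of different number were not correlated, so these values cannot show whether pairing was absent. With the replicate number as a block, ATP1B1 in high against medium passed (0.18, adjusted p = 0.0406) and 1 FXYD gene was called lower.

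Without 1 library, log2 changes ran from -0.23 to -0.17 for ATP1B1 in low against control, -0.23 to -0.17 in medium against control, -0.23 to -0.048 in low against palmitate, -0.24 to -0.054 in medium against palmitate, 0.13 to 0.20 in high against medium, -0.026 to 0.032 in medium against low and -0.15 to 0.034 in palmitate against control. For ATP1B3 they ran from 0.16 to 0.21 in low against control, 0.13 to 0.21 in medium against palmitate, -0.15 to -0.075 in high against medium and -0.027 to 0.030 in high against control. FXYD genes called ran from 0 to 2 higher and 0 to 1 lower.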
